A study of Mus musculus with 6 samples.

Results

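Enzymes that convert foreign compounds, drugs, steroids and bile acids were followed in leukocyte-enriched cells of the mouse cecum, between serrated polyps and the tissue around them. The set held the cytochrome P450 (Cyp), UDP-glucuronosyltransferase (Ugt), glutathione S-transferase (Gst, of the alpha, mu, pi, theta, kappa, omega and zeta classes) and cytosolic sulfotransferase (Sult) genes. Genes entered by their symbol in the array's annotation. The set was chosen with earlier results of these data known, so its called shares only describe it. The array carried 168 probes for 124 such genes: 75 Cyp, 16 Ugt, 21 Gst and 12 Sult genes. A gene entered the test if 3 or more of the 6 arrays detected a probe of it, with a detection p-value below 0.05, and this left 51 of the 124 genes: 23 Cyp, 6 Ugt, 18 Gst and 4 Sult genes. Where several probes of a gene passed, the brightest stood for it. The tested set came from 9246 named genes that passed the same filter.

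The 6 samples came from 3 mice of the HBUS strain. Each mouse gave a sample labelled SP, from a serrated polyp, and a sample labelled Surrounding, from normal distal cecum around it. HBUS mice are known as a line with transgenes for the EGF receptor ligand HB-EGF and a viral chemokine receptor in the gut epithelium. Every sample came from this strain, so polyp and surrounding tissue of a mouse shared its inherited alleles. The labels give only the strain name, and changes acquired in a polyp were not examined. No treatment, and no age, is given in the sources used here. Shaking in EDTA was meant to remove epithelial cells first, dispase then broke up what was left, and magnetic columns retained the cells bearing CD45. The RNA was thus of an enriched and not a pure population, and epithelial markers were still detected in it.

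In drug metabolism, a first phase of reactions, run mainly by cytochromes P450 with electrons from their reductase, adds or uncovers a reactive group. In the next phase transferases attach glucuronic acid (Ugt), glutathione (Gst) or sulfate (Sult), and transporters then export the conjugate. In the gut these enzymes are mainly products of epithelial cells, with a gradient from small to large bowel, and some P450s of leukocytes act on lipid mediators instead. Many of the genes lie in clusters of close copies, so a probe can also bind RNA of a neighbouring copy; probe sequences were not used here, and values of close copies are uncertain to that extent.

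Between 12657 and 13796 of the 25697 probes were detected per array, and the median scanner intensity ran from 97.3 to 109.3, both lowest in the SP sample of mouse 3. Ptprc, the gene of CD45, was read as a check of the sorted population and was detected on 3 of 3 Surrounding and 2 of 3 SP arrays. It read 4.91, 5.43 and 4.48 in SP and 5.95, 6.22 and 5.61 in Surrounding, in the order of mice 1, 2 and 3. The SP values lay close to the detection limit, so this check does not settle how pure the populations were. Ptprc was lower in SP in 3 of 3 mice (log2 difference -0.99 with an SE of 0.11 over 3 pairs, adjusted p = 0.0052 in limma). Epithelial genes were detected on these arrays: 17 of the 17 epithelial markers on the array were tested, and 3 of them rose (median 0.21). Differences are given as SP minus Surrounding in normalised log2 intensity with the standard error (SE) of limma's paired fit over 3 mice. A difference was called at a Benjamini-Hochberg adjusted p under 0.05 over all 13409 tested probes. In such bulk samples, fewer cells of a type and less RNA per cell cannot be told apart.

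Of the 51 tested genes, 5 rose in polyp samples, all of them glutathione S-transferases, and 6 fell, from each of the 4 families. The rises were Gsta2, Gsta1 and Gsta4 of the alpha class and Gstp2 and Gstp3 of the pi class. The falls were Sult1a1, Cyp2c55, Cyp4f18, Cyp2d22, Ugt2b35 and Gstm1. The called share was 21.6% of the tested set against 11.5% of all tested genes. Over all tested probes, the probes of the set with them, 10.4% were called. By direction, 5.0% of all tested genes rose and 6.46% fell. Over probes, 620 rose and 779 fell, and 407 rose and 1000 fell when arrays were scaled to the same median. The median difference was -0.13 in the set and 0.02 over all tested genes, and 25 of the 51 members differed by less than 0.25 in size.

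By family, 6 of 18 Gst genes were called (33.3%), 3 of 23 Cyp genes (near the background), 1 of 6 Ugt genes and 1 of 4 Sult genes. The family medians were 0.14 for Gst, -0.11 for Cyp, -0.35 for Ugt and -0.24 for Sult. SP lay above Surrounding without overlap of the groups for 6 members and below for 8, against 10.7% and 9.53% of all tested genes and 20.2% in either direction. The sign was the same in 3 of 3 mice for 11 of the 51 members above 0 and 23 below. Of all 9246 tested genes, 2530 were above 0 and 2238 below in 3 of 3 mice, or 51.6% in either direction. In a fit without a term for mouse, the calls of Gsta2, Cyp2c55 and Sult1a1 remained and the other 8 were lost. The same 3, with Gsta1, passed in every fit that left out 1 mouse. The rises and falls numbered 5 and 10 without mouse 1, 4 and 2 without mouse 2, and 3 and 2 without mouse 3.

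**Figure D1:**
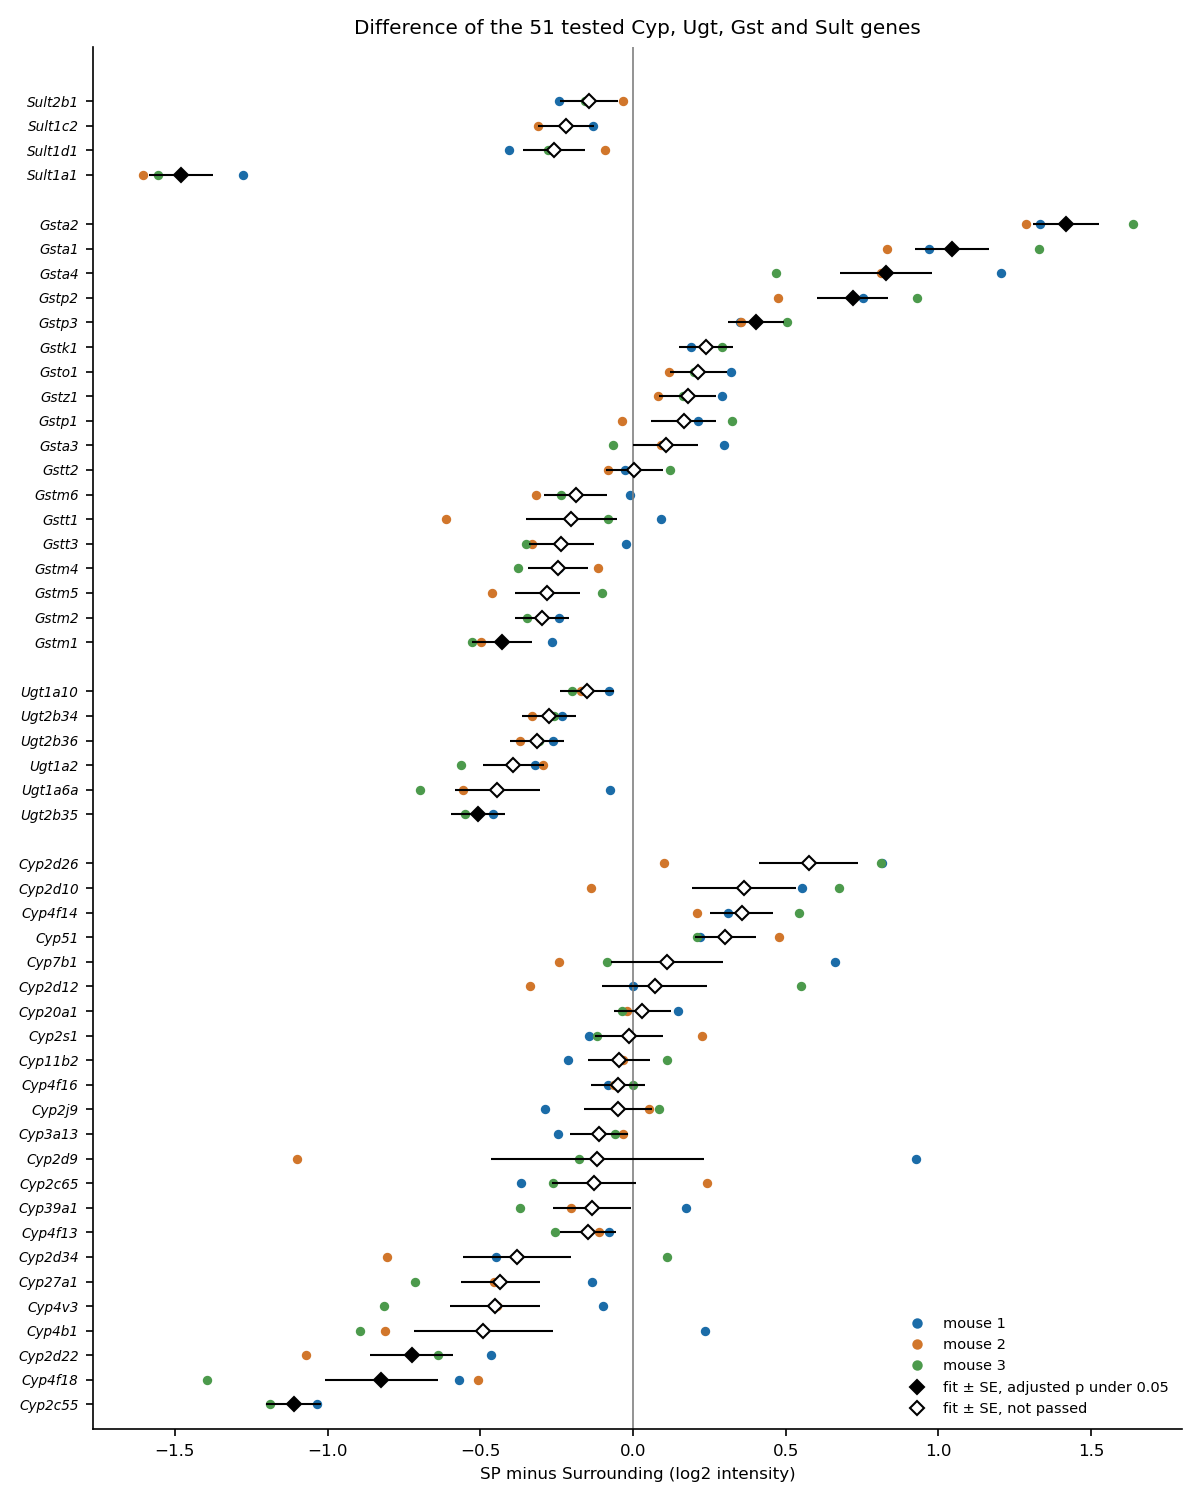
Difference between SP and Surrounding (log2 intensity, horizontal axis) of the 51 tested genes, ordered by size within Cyp, Ugt, Gst and Sult; small points are the 3 mice and diamonds the fitted difference with its SE, filled where the adjusted p was under 0.05. The 5 filled rises are all Gst genes, and the 6 Ugt and 4 Sult genes all lie below 0.

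The alpha-class glutathione S-transferases, which detoxify lipid peroxidation products and are abundant in gut and liver epithelium, held the 3 largest rises of the set. Gsta2 had normalised log2 intensities of 10.70, 11.18 and 10.62 in SP, in the order of mice 1, 2 and 3 used throughout, and 9.37, 9.90 and 8.98 in Surrounding. Every SP sample lay above every Surrounding sample, and the rise was of similar size in the 3 mice. It amounted to 2.67-fold (log2 difference 1.42 with an SE of 0.11 over 3 pairs, adjusted p = 0.00273 in limma). In the scanner intensities before any correction, Gsta2 read 1656.3, 2827.2 and 1364.6 in SP and 744.4, 1048.6 and 632.9 in Surrounding.

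Gsta1, its close copy, read 11.76, 12.06 and 11.63 in SP and 10.79, 11.23 and 10.30 in Surrounding. The groups again did not overlap, and mouse 3 had the lowest Surrounding value and the widest gap in both genes. Gsta1 was 2.06-fold higher (log2 difference 1.04 with an SE of 0.12 over 3 pairs, adjusted p = 0.00706 in limma), in 3 of 3 mice. Without a term for mouse its adjusted p in limma was 0.0935.

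Gsta4, which prefers the peroxidation product 4-hydroxynonenal, read 8.92, 8.89 and 8.89 in SP and 7.71, 8.08 and 8.42 in Surrounding. Its SP values were nearly level over the 3 mice, while the Surrounding values spread, so the differences ran from 1.21 in mouse 1 to 0.47 in mouse 3. The gene was 1.78-fold higher (log2 difference 0.83 with an SE of 0.15 over 3 pairs, adjusted p = 0.0244 in limma), and the call was lost without mouse 2 (adjusted p = 0.103). Gsta3, the remaining tested alpha-class gene, read 10.63, 10.60 and 10.65 in SP and 10.33, 10.51 and 10.71 in Surrounding. Its groups overlapped, and its difference of 0.11 ± 0.11 did not pass (limma adjusted p = 0.558). The other Gsta3 probe gave 0.12.

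The small-intestinal enterocyte list, read without the set's own genes, had higher levels in the same samples. Of its 7 tested genes, 3 rose (Sis, Fabp6 and Treh), and its summed normalised intensity was 774.9 to 1789 in SP and 342.6 to 530.8 in Surrounding. Of the list's genes on the array, Fabp2 and Slc2a2 were not detected on any array. Summed epithelial markers were 58610 to 62490 in SP and 50880 to 55480 in Surrounding, and 3 of 17 rose (Krt19, Krt18 and Elf3). Of the 10 hepatocyte markers on the array, 6, Alb among them, were not detected on any array, and of the 2 tested Cps1, which enterocytes express too, rose (1.77) and Ttr gave 0.16. The summed intensity of these 2 was 606.6 to 1459 in SP and 341.0 to 1629 in Surrounding. The part of enterocyte RNA in the alpha-class rise was not tested.

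**Figure D2:**
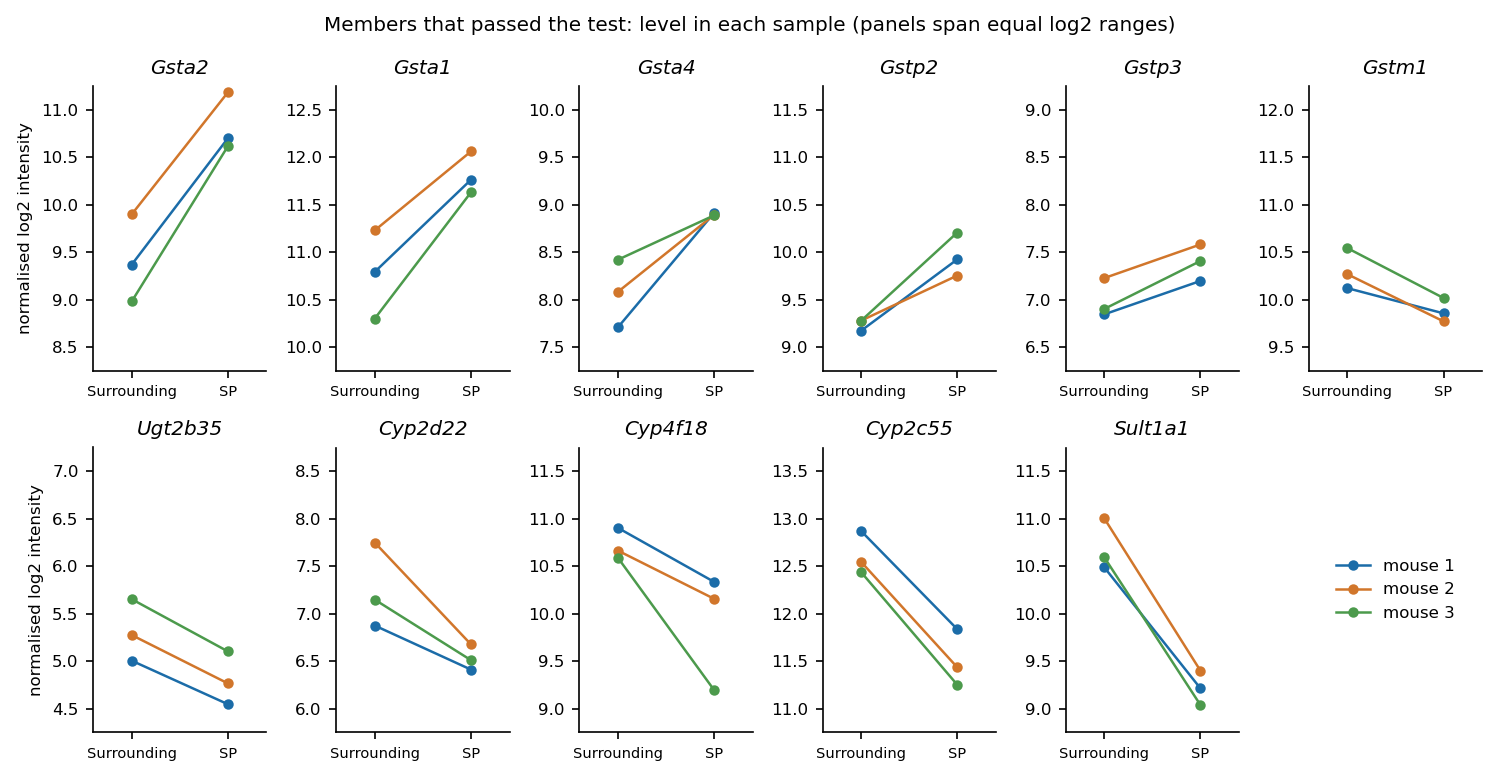
Normalised log2 intensity (vertical axis) of the 11 genes that passed the test, in the Surrounding and the SP sample of each mouse, joined by a line per mouse; each panel spans the same log2 range. Lines rise in every mouse for the 3 Gsta and 2 Gstp genes and fall in every mouse for the other 6.

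In the pi class, which conjugates electrophiles and binds kinases of stress signalling, Gstp2 read 9.92, 9.75 and 10.21 in SP and 9.17, 9.28 and 9.28 in Surrounding. The Surrounding values lay close together and every SP value was above them. The rise was 1.65-fold (log2 difference 0.72 with an SE of 0.12 over 3 pairs, adjusted p = 0.0178 in limma) and was not called without mouse 3 (adjusted p = 0.0825). Gstp3 read 7.20, 7.58 and 7.41 in SP and 6.85, 7.23 and 6.90 in Surrounding. Its groups overlapped, as mouse 2 was highest in each, but SP exceeded Surrounding in 3 of 3 mice by 0.35 to 0.51. Its difference of 0.40 ± 0.09 (SE, n = 3 pairs) passed narrowly (limma adjusted p = 0.0462), and 6 of 13 alternatives, those without mouse 2 and without mouse 3 among them, lost the call. Gstp1, the pi-class enzyme best known from tumours, read 11.38, 11.25 and 11.51 in SP and 11.16, 11.29 and 11.18 in Surrounding. Mouse 2 showed no rise, and Gstp1 differed by 0.17 ± 0.11 (limma adjusted p = 0.366). Its other 2 probes gave 0.13 and 0.26 and did not pass either.

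Promoter sequence is shown for the genes with the largest differences in the set and for Gstp1 beside its copy Gstp2, so that the copies which differed in call can be set side by side. The 250 bases before each start are printed on the gene's strand, from RefSeq's GRCm38.p6; of the 51 tested genes, 43 had a promoter in that table. Capitals mark matches to the letters of the dioxin response core GCGTG, the antioxidant response core TGACNNNGC, the HNF1 half-site GTTAAT and the AP-1 site TGAGTCA, each on either strand, and the TATA box TATAAA on the gene's strand. The AP-1 letters were added after the sequences had been seen, and no marked matches overlap. Gsta1 lies at chr9:78230419-78230668 (plus strand), Gsta2 at chr9:78347146-78347395 (minus), Gstp1 at chr19:4037913-4038162 (minus) and Gstp2 at chr19:4042222-4042471 (minus).
Gsta1: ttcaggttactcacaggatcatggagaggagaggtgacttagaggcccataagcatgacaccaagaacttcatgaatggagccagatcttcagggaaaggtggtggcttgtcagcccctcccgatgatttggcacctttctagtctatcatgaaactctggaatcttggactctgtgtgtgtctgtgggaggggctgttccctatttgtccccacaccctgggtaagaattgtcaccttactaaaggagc
Gsta2: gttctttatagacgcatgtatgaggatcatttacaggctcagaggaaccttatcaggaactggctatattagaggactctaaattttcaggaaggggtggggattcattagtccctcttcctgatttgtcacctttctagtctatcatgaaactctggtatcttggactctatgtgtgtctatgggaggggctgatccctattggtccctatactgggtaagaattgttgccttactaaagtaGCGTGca
Gstp1: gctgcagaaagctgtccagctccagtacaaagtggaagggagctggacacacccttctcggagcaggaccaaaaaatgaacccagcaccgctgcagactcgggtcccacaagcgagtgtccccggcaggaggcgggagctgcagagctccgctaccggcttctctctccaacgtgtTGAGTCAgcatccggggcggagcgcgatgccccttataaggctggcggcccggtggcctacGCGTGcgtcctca
Gstp2: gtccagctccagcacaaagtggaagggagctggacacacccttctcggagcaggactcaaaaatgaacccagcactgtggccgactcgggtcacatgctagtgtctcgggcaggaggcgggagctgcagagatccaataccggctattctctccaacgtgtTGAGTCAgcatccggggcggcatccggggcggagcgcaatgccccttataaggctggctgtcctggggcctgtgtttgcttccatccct

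Aligned end to end, the windows of Gsta1 and Gsta2 were identical at 70.5% of 261 positions and those of Gstp1 and Gstp2 at 78.1% of 265. The unrelated pair of Gsta1 and Gstp1 gave 45.1% by the same alignment, and Gstp3 was at that level against Gstp1 (47.7%) and Gstp2 (45.8%). Gstp1 and Gstp2 thus share most of this window, including the AP-1 letters, while Gstp2 was called higher and Gstp1 was not; the difference between the 2 genes was not tested. The AP-1 letters occur in 4.46% of the 32851 promoters in the table. The dioxin response core, seen once each in Gsta2 and Gstp1, occurs in 28.2% of promoters. The antioxidant response core, searched only with C after TGA (10.2% of promoters), had no match in these windows, which says only that these letters are not in them. A form with G at that place was not searched. The AP-1 letters of Gstp1 and Gstp2 are followed by gc, and such a form would match there.

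The mu-class glutathione S-transferases, which conjugate epoxides and aromatic electrophiles, all lay below 0. Gstm1 read 9.86, 9.77 and 10.02 in SP and 10.12, 10.27 and 10.54 in Surrounding. The groups did not overlap, and the fall ran from 0.27 in mouse 1 to 0.53 in mouse 3. The gene was 1.35-fold lower (log2 difference -0.43 with an SE of 0.10 over 3 pairs, adjusted p = 0.048 in limma), just inside the threshold, and 7 of 13 alternatives, those without mouse 2 and without mouse 3 among them, lost the call. Its dimmer probe, detected on 4 arrays, gave -0.22 (limma adjusted p = 0.371).

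Gstm2 read 10.79, 10.76 and 10.99 in SP and 11.03, 11.06 and 11.34 in Surrounding, also without overlap. It differed by -0.30 ± 0.09 (limma adjusted p = 0.0942), and its other probes by -0.26 and -0.22. It passed in 4 of 13 alternatives, among them the table processed by the authors (limma adjusted p = 0.0247) and the nearly identical values with background left in. Gstm5 differed by -0.28, Gstm4 by -0.24 and Gstm6 by -0.19, and each was below 0 in 3 of 3 mice without passing the test. The class therefore had 1 call in 5, with a median of -0.28, beside 3 calls in 4 and a median of 0.94 in the alpha class. Gstm3 was not detected on any array.

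No gene of the remaining Gst classes passed limma's adjusted threshold, and 1 of the 6, Gstk1, had an unadjusted p under 0.05. Gsto1, an omega-class enzyme that reduces dehydroascorbate, read 12.22, 12.03 and 12.06 in SP and 11.89, 11.91 and 11.86 in Surrounding. Its groups did not overlap, but the difference was 0.21 ± 0.09 (limma adjusted p = 0.205). Gstk1 of the mitochondrial kappa class gave 0.24 and Gstz1, the maleylacetoacetate isomerase of tyrosine breakdown, 0.18, each above 0 in 3 of 3 mice. The theta-class genes Gstt1, Gstt2 and Gstt3 gave -0.20, 0.00 and -0.23.

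Sult1a1, which sulfates phenols such as simple drugs and plant phenolics, was the largest fall of the set. It read 9.21, 9.40 and 9.04 in SP and 10.49, 11.01 and 10.60 in Surrounding. All SP values were at least 1 log2 unit under all Surrounding values. Sult1a1 was 2.79-fold lower (log2 difference -1.48 with an SE of 0.11 over 3 pairs, adjusted p = 0.00234 in limma). Its scanner intensities were 623.8, 867.8 and 493.4 in SP and 1500.1, 2130.4 and 1751.2 in Surrounding.

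The other 3 tested sulfotransferases differed little. Sult1d1, which acts on catechols, read 9.88, 10.60 and 10.37 in SP and 10.28, 10.69 and 10.65 in Surrounding and gave -0.26 ± 0.10 (limma adjusted p = 0.168). Sult1c2 gave -0.22 ± 0.09 (limma adjusted p = 0.188). Sult2b1, the enzyme of cholesterol sulfate, gave -0.14, and its dimmer probes -0.06 and 0.04. Groups overlapped for each of these genes, although all 3 were below 0 in 3 of 3 mice by the probe used. Papss2, which makes the sulfate donor PAPS, fell by 0.78 on the log2 scale (SE 0.11, limma adjusted p = 0.0117, lower in 3 of 3 mice), and Papss1, of the same activity, gave -0.14 and did not pass.

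Among the P450s, Cyp2c55, an oxidase of arachidonic acid that is abundant in mouse large bowel, fell most. It read 11.84, 11.44 and 11.25 in SP and 12.87, 12.55 and 12.44 in Surrounding. The groups did not overlap and the fall was nearly equal in the 3 mice, from 1.03 to 1.19. The gene was 2.16-fold lower (log2 difference -1.11 with an SE of 0.09 over 3 pairs, adjusted p = 0.00295 in limma). Cyp2c65, its neighbour among intestinal Cyp2c genes, gave -0.13 ± 0.14 (limma adjusted p = 0.6) and was 0.24 above 0 in mouse 2 and below 0 in the others.

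For the genes with the largest falls, the same window before the start is shown, again with capitals at the matches named above. Cyp2c55 lies at chr19:39006769-39007018 (plus strand) and Sult1a1 at chr7:126676419-126676668 (minus).
Cyp2c55: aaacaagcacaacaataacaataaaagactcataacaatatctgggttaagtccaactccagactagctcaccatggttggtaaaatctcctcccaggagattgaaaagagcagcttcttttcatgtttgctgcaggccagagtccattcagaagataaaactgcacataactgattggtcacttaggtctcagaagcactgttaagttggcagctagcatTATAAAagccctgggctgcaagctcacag
Sult1a1: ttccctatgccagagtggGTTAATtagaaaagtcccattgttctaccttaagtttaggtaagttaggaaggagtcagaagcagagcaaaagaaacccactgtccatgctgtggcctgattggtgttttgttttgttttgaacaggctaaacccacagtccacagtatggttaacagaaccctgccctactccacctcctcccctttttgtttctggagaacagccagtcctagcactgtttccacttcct

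Cyp2c55 had the TATA letters 29 to 24 bases before its start, a match found in 7.59% of promoters, and Sult1a1 the HNF1 half-site 232 to 227 bases before it, found in 6.43%. The windows of the 2 genes were identical at 43.8% of aligned positions, close to the unrelated pair above, and shared none of the marked matches.

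Surface markers of the large bowel were mixed in the same samples. Of 10 tested, Car4 (-2.21) and Aqp8 (-1.34) fell, Mall (0.70) and Aqp4 (0.54) rose, and the summed intensity was 12970 to 14570 in SP and 14920 to 18240 in Surrounding. Of the goblet cell markers, 3 of 9 fell (Clca1, Klf4 and Zg16). Slc26a3 and Atoh1 were not detected on any array. The part of these cells in the falls of Cyp2c55 and Sult1a1 was not tested.

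Cyp4f18, known in mouse leukocytes for oxidising leukotriene B4, read 10.33, 10.16 and 9.19 in SP and 10.90, 10.66 and 10.59 in Surrounding. Every SP value was under every Surrounding value, and the fall in mouse 3, 1.39, exceeded those of 0.57 and 0.51 in mice 1 and 2. The gene was 1.77-fold lower (log2 difference -0.82 with an SE of 0.19 over 3 pairs, adjusted p = 0.0453 in limma), and its other probes gave -0.70 (limma adjusted p = 0.0513) and -0.51 (0.0312). Without mouse 3 the difference was -0.54 (adjusted p = 0.0824), and without mouse 2 -0.98 (adjusted p = 0.0808).

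Leukocyte markers moved both ways in these samples. Of 8 tested neutrophil markers 6 rose, with a summed intensity of 7090 to 8322 in SP and 1398 to 3508 in Surrounding; Mmp8 and Mpo were not detected on any array. Of 13 T cell markers 12 fell, with sums of 1010 to 2129 in SP and 2380 to 7585 in Surrounding. Of 10 B cell markers 9 fell, with sums of 647.7 to 799.3 and 1800 to 3426. Of 13 monocyte and macrophage markers 2 fell (Folr2 and Ms4a7) and 12 were below 0, 10 of them in 3 of 3 mice, with sums of 7228 to 19050 in SP and 11550 to 20130 in Surrounding. The median of this list was -0.44, with -0.18, -0.37 and -0.89 in mice 1, 2 and 3. Ccr2 was not detected on any array. Of 9 mast cell markers 1 rose (Gata2) and 7 were above 0, with sums of 907.5 to 3195 and 983.6 to 1850, and Ms4a2 and Mcpt2 were not detected on any array. Markers of other cell types differed too. Of 10 endothelial markers 10 rose, with sums of 4595 to 5460 in SP and 2902 to 3420 in Surrounding. Of 6 smooth muscle markers 4 fell, with sums of 1109 to 1991 and 2261 to 3110. Of 13 fibroblast markers 2 fell, and the median was -0.08. Kdr, Postn, Cnn1, Lmod1 and Synpo2 were not detected on any array. The part of any of these cells in the fall of Cyp4f18, or in the differences of other members, was not tested.

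**Figure D3:**
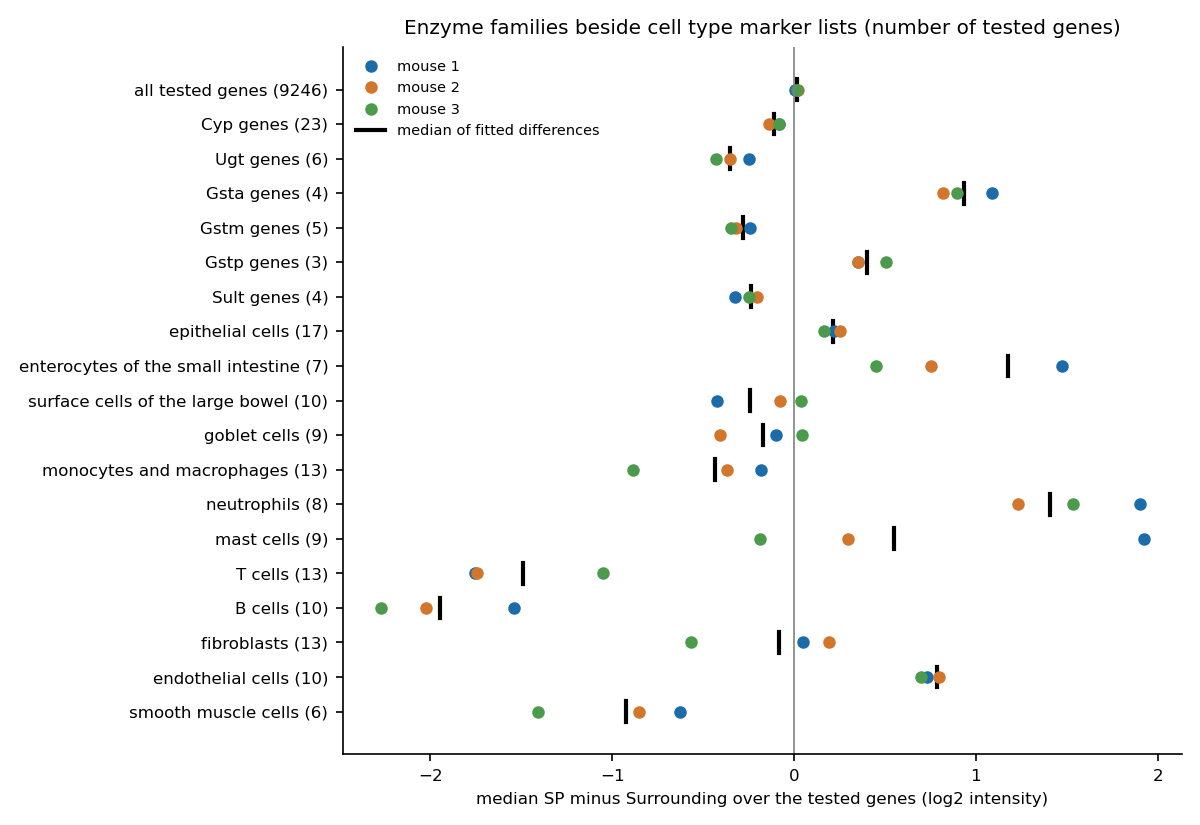
Median difference between SP and Surrounding (log2 intensity, horizontal axis) over the tested genes of enzyme groups and cell type marker lists, with their number in parentheses. Points are the 3 mice and bars the median of the fitted differences. The enzyme groups shown are Cyp, Ugt, Gsta, Gstm, Gstp and Sult. The other Gst classes and the hepatocyte list are not shown. The Gsta and Gstp genes and the epithelial, small-intestinal enterocyte, neutrophil and endothelial markers lie above 0 in every mouse. The Cyp, Ugt, Gstm and Sult genes and the monocyte and macrophage, T cell, B cell and smooth muscle markers lie below 0 in every mouse. The median over all tested genes lies just above 0.

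Cyp2d22, a mouse relative of the human drug oxidase CYP2D6, read 6.41, 6.68 and 6.51 in SP and 6.87, 7.75 and 7.15 in Surrounding. The groups did not overlap, and mouse 2 had the highest Surrounding value and the largest fall. The gene was 1.65-fold lower (log2 difference -0.72 with an SE of 0.14 over 3 pairs, adjusted p = 0.0265 in limma), and leaving out mouse 2 or mouse 3 ended the call, with limma adjusted p of 0.126 and 0.103.

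The other tested Cyp2d genes were not called by their brightest probes. Cyp2d26 read 8.13, 7.87 and 8.57 in SP and 7.32, 7.77 and 7.76 in Surrounding, above 0 in 3 of 3 mice but with only 0.10 in mouse 2. By its brightest probe it did not pass (0.58 ± 0.16, limma adjusted p = 0.0817), while its 2 dimmer probes passed, at 0.59 (limma adjusted p = 0.041) and 0.66 (0.0302). Without mouse 2 the brightest probe passed as well. Cyp2d10, Cyp2d12, Cyp2d34 and Cyp2d9 gave 0.36, 0.07, -0.38 and -0.12, each with mice on both sides of 0 or at it. Cyp2d9 varied most of these, with differences of 0.93, -1.10 and -0.18 in mice 1, 2 and 3 and an SE of 0.35.

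Of the other Cyp4 genes, Cyp4f14, a fatty acid and leukotriene hydroxylase of gut and liver, read 10.85, 11.06 and 10.88 in SP and 10.54, 10.85 and 10.33 in Surrounding. The groups just overlapped, and it was above 0 in 3 of 3 mice (0.36 ± 0.10) without passing (limma adjusted p = 0.0894). It passed in 4 of 13 alternatives, the authors' processed table (limma adjusted p = 0.0443) and the nearly identical values with background left in included. Cyp4b1, which acts on fatty acids and on some plant toxins, gave -0.49 ± 0.23, with 0.24 in mouse 1 and -0.81 and -0.89 in the others. Cyp4v3, a fatty acid hydroxylase whose human counterpart serves the retina, gave -0.45 ± 0.15 (limma adjusted p = 0.114), below 0 in 3 of 3 mice. Without mouse 1, Cyp4b1 and Cyp4v3 were both called lower. Cyp4f13 gave -0.15 and Cyp4f16 -0.05.

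Cyp3a13, a Cyp3a enzyme of mouse intestine, read 10.43, 10.77 and 10.31 in SP and 10.67, 10.80 and 10.37 in Surrounding. The groups overlapped, and the difference of -0.11 ± 0.10 did not pass (limma adjusted p = 0.496), with -0.06 and -0.10 by its other probes. Cyp2s1 of epithelia gave -0.01 and Cyp2j9 -0.05.

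No P450 of sterol, steroid or bile acid metabolism passed limma's adjusted threshold, of 5 tested, while 2 (Cyp27a1 and Cyp51) had an unadjusted p under 0.05, and their median was -0.05. Cyp27a1, which hydroxylates the sterol side chain, was below 0 in 3 of 3 mice, at -0.14, -0.46 and -0.71 (-0.43 ± 0.13, limma adjusted p = 0.0946). Its other probes gave -0.31 and -0.43, and it was called lower without mouse 1. Cyp51, which demethylates lanosterol on the way to cholesterol, was above 0 in 3 of 3 mice (0.30 ± 0.10, limma adjusted p = 0.12). Cyp7b1, an oxysterol hydroxylase, gave 0.11, Cyp39a1 -0.13 and Cyp11b2, the aldosterone synthase, -0.05 near the detection limit. Cyp20a1, without a settled substrate, gave 0.03.

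The 6 tested Ugt genes were each lower in 3 of 3 mice by the probe used, with 1 call. Ugt2b35 read 4.55, 4.77 and 5.10 in SP and 5.01, 5.28 and 5.65 in Surrounding, close to the detection limit, and was detected on 2 of 3 SP arrays. Its groups overlapped, because the mice differed from each other by as much as the tissues did, but the fall within each mouse was nearly equal, at 0.46, 0.51 and 0.55. The gene was 1.42-fold lower (log2 difference -0.51 with an SE of 0.09 over 3 pairs, adjusted p = 0.0223 in limma), and it was not called without mouse 2 or without mouse 3. In the table processed by the authors, where background was left in, its difference was -0.15 (limma adjusted p = 0.0964).

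Ugt2b36 gave -0.31 ± 0.09 by its brightest probe (limma adjusted p = 0.083) and -0.58 ± 0.11 by the other, which passed (limma adjusted p = 0.0265). Ugt2b34 gave -0.27 ± 0.09 (limma adjusted p = 0.113). Genes of the Ugt1a locus share their last exons, so that a probe there reads several of them together. Ugt1a6a, an enzyme of simple phenols, read 8.02, 7.22 and 7.48 in SP and 8.10, 7.77 and 8.18 in Surrounding and gave -0.44 ± 0.14 (limma adjusted p = 0.105), with -0.32 and 0.03 by its other probes. It was called lower without mouse 1. Ugt1a10 gave -0.15 and Ugt1a2, detected on 1 of 3 SP arrays and 3 of 3 Surrounding arrays, -0.39 (limma adjusted p = 0.0631).

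Of the 124 genes, 73 were not tested, 63 of them detected on no array. Among the latter were Cyp1a1 and Cyp1a2, the classical targets of the aryl hydrocarbon receptor, the liver P450 Cyp3a11, and Cyp7a1 and Cyp8b1 of bile acid synthesis. The other 10 were detected on 1 or 2 arrays. Cyp11a1 and Cyp2c67 were detected on 2 SP arrays, Cyp1b1, Cyp24a1, Cyp2d40 and Gsto2 on 1 SP array, and none of these on a Surrounding array. Cyp4f15 and Sult1b1 were detected on 1 Surrounding array alone, and Cyp2e1 and Sult5a1 in each group. Their intensities were near the background of the array: the highest was 116.0, for Cyp1b1 in the SP sample of mouse 2.

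Of 31 tested enzymes that work beside the P450s or share their substrates, 3 rose and 7 fell. The carboxylesterases Ces1d (-1.29 ± 0.13) and Ces1g (-0.85 ± 0.13), which split ester drugs and lipids, fell. Ces1g was close to the detection limit in SP and was detected on 2 of 3 SP arrays. Cbr2, a carbonyl reductase (-1.01 ± 0.10), Aldh1a1, which makes retinoic acid (-0.90 ± 0.10), the microsomal epoxide hydrolase Ephx1 (-0.87 ± 0.09) and the alcohol dehydrogenase Adh1 (-0.66 ± 0.13) fell too, each in 3 of 3 mice. Ephx1 read 7.54, 7.21 and 6.82 in SP and 8.41, 8.05 and 7.74 in Surrounding, with limma adjusted p = 0.00458. Aldh3b1 (-0.51) was the other fall. Aldh1a3 is among the 3 rises, but it was detected on 3 SP arrays and on no Surrounding array. It thus entered the test through SP alone, and its call carries no weight. Its SP level was at least 1.32-fold that of Surrounding. This was counted on each Surrounding array from the dimmest detected signal or its own, whichever was higher. The other rises were 0.42 for Nqo2 and 0.49 for Cyb5a, the cytochrome b5 that passes electrons to P450s. The list's median was -0.09, against 0.02 over all tested genes.

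Of 19 other conjugating enzymes and suppliers of cofactors, Gss, the glutathione synthetase, rose by 0.48 ± 0.09 (limma adjusted p = 0.0255), and Papss2 and the tyrosine sulfotransferase Tpst1 (-0.58 ± 0.12) fell. The rate-limiting glutathione ligase subunits Gclc and Gclm gave -0.13 and 0.08 and did not pass. Gclc was close to the detection limit and was detected on 2 of 3 SP arrays. The membrane-bound Mgst1, Mgst2 and Mgst3 gave 0.16, 0.08 and 0.13.

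Of 21 tested sensors and their partners, 1 passed: Nr1h4, the bile acid receptor FXR, rose by 0.72 ± 0.10 (limma adjusted p = 0.0113). The pregnane and androstane receptors Nr1i2 and Nr1i3 gave 0.29 and 0.16, and Nfe2l2, the gene of the oxidant sensor NRF2, 0.21. Nr1i3 was close to the detection limit and was detected on 1 of 3 Surrounding arrays. Ahr was not detected on any array, and its repressor Ahrr, detected on 2 of 3 SP arrays, gave -0.54 (limma adjusted p = 0.0551) without passing. Of 15 transporters 2 rose, namely Slc51a (0.87 ± 0.13, limma adjusted p = 0.0134) and Slc51b (0.60 ± 0.13, limma adjusted p = 0.0377), which together form the basolateral bile acid exporter. Of 4 tested AHR target genes Gsta1 passed, and Ugt1a6a, Ahrr and Nqo1 did not. Cyp1a1, Cyp1a2, Tiparp and Aldh3a1 were not detected on any array.

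Of 12 tested NRF2 target genes outside the set, 3 rose, namely Me1, the cytosolic malic enzyme (0.68), Slc7a11, the cystine importer (0.62), and Srxn1, the sulfiredoxin (0.52), and Ephx1 fell. The median of these 12 was 0.14. Within the set, 5 NRF2 targets were tested: Gsta1 and Gsta4 rose, Gstm1 fell, and Gstm2 (-0.30) and Gstp1 (0.17) did not pass. Nqo1, the quinone reductase often used as the readout of this pathway, gave 0.15 (limma adjusted p = 0.383).

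**Figure D4:**
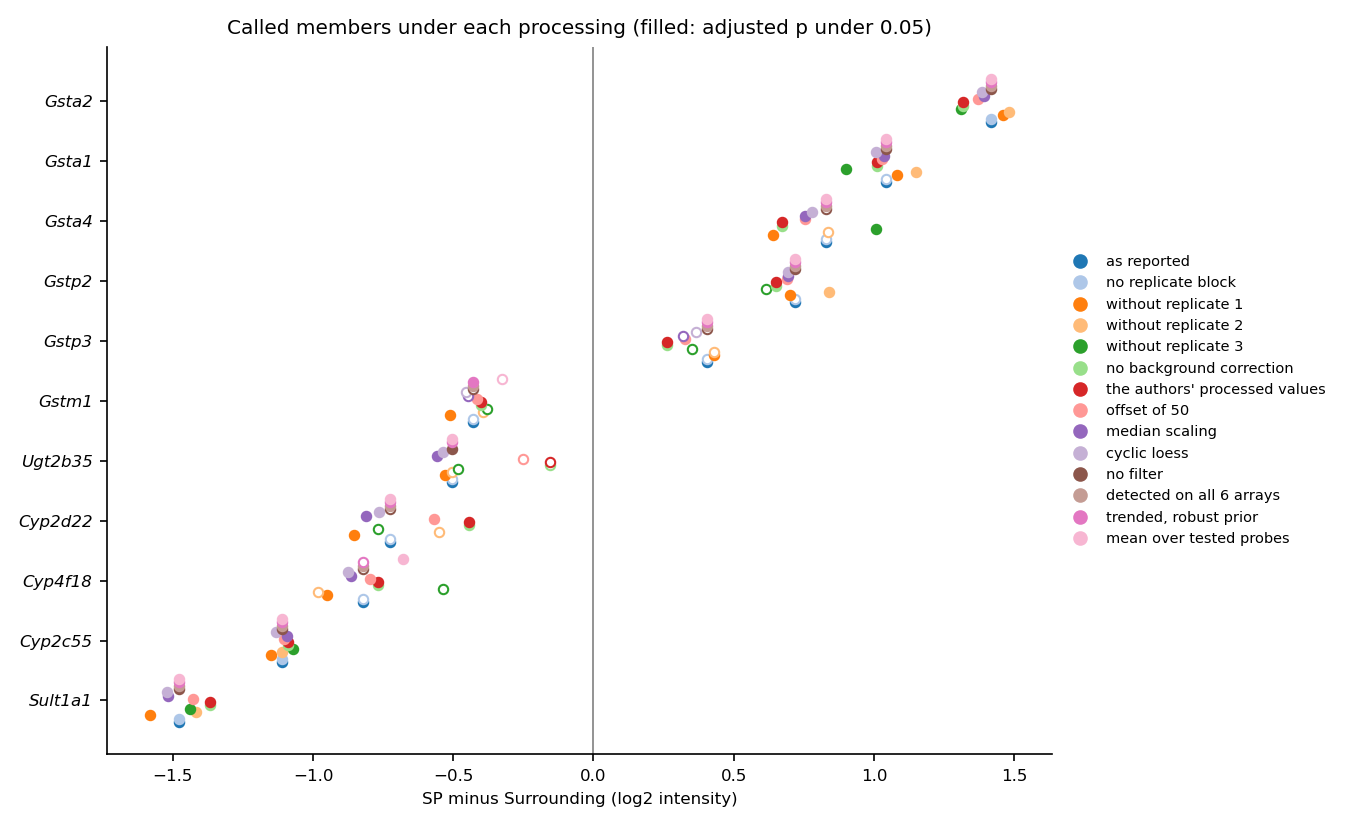
Difference between SP and Surrounding (log2 intensity, horizontal axis) of the 11 called genes as reported and under 13 other choices of processing, model or mice; a filled point has an adjusted p under 0.05. All points of Gsta2, Cyp2c55 and Sult1a1 are filled, every gene keeps its direction, and Ugt2b35 comes nearest to 0.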

How the data were processed

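Values came from 6 arrays of an Illumina mouse BeadChip (SP and Surrounding, 3 mice). The deposited scanner table holds a linear intensity per probe and, per the file headers, a detection p-value. A second deposited table holds the authors' processed intensities, which quantile normalization of the raw scanner values, with background left in, matched to within 0.005. GenomeStudio and limma 3.14.4 are named, with no role, per the submitters' processing notes. No sequencing depth applies; 3 arrays a group limit the precision.

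In R 4.3.3 with limma 3.58.1, scanner intensities were corrected by normexp from the detection p-values (offset 16) and quantile normalized, then converted to log2. Of 25697 probes, 13409 detected on at least 3 arrays were fitted (lmFit, eBayes, two-sided) with terms for mouse and tissue, leaving 2 residual degrees of freedom plus 4.04 from the prior. The series' design text states the pairing by animal. Deviations from the group means correlated by 0.571, 0.564 and 0.614 within mice. Platform annotation named 23978 probes and 1719 had no name. The fit was tested on simulated data. Members and lists were chosen with earlier results of these data known. Named were all called members, the 4 brightest of each family and the 3 largest not called; all other members, and list genes that did not pass or lay beyond the 6 largest of a list, were added after their values were seen, for completeness. Levels are not compared between probes. Alternatives were the 13 in the closing section. Among them, the values with background left in and the authors' table are nearly the same processing, yet each counts as 1 of the 13. Replicates of a group are separate mice.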

Additional observations from a re-analysis of the deposited data

How the results depend on the processing

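Every one of the 11 called members kept its direction under the 13 alternatives that gave it a value (12 for Ugt2b35, which was not tested where detection on all 6 arrays was required). Gsta2, Cyp2c55 and Sult1a1 passed in 13 of 13, Gsta1 in 12, Gstp2 in 11, Gsta4 in 10, Cyp2d22 in 9, Cyp4f18 in 8, Gstp3 in 7, Gstm1 in 6 and Ugt2b35 in 6 of 12. The 5 rises and 6 falls became 1 and 2 with no replicate block, that is with mouse left out of the paired model, and 3 and 3 with no filter on dim probes. Leaving out 1 mouse gave 3 to 5 rises and 2 to 10 falls: 5 and 10 without mouse 1, 4 and 2 without mouse 2, and 3 and 2 without mouse 3. Cyp27a1, Cyp4b1, Cyp4v3 and Ugt1a6a were called lower without mouse 1 and with arrays scaled to the same median. Cyp4f14 rose and Gstm2 fell where background was left in, in the authors' table, at an offset of 50 and with a trended prior, Gstk1 rose in the first 2 of these, and Cyp27a1 fell with the trended prior. Cyp2d26 rose without mouse 2, with median scaling and by the mean over probes, which also called Ugt2b36 lower. The median of the Cyp genes, -0.11, was -0.0424 where background was left in, -0.0425 in the table processed by the authors, -0.0693 at an offset of 50, -0.144 with arrays scaled to the same median and -0.00961 with no filter, and ran from -0.101 to -0.0458 with a mouse left out. The median of the Ugt genes, -0.35, was -0.149 where background was left in and in the table processed by the authors, -0.209 at an offset of 50 and -0.02 with no filter; that of the Sult genes, -0.24, was -0.126 with no filter. Background left in the values and a larger offset by construction draw differences of dim probes towards 0. With no filter the differences of the members followed singly were the same and the medians cover more genes (124 members against 51). Other causes were not tested. With median scaling eBayes gave every probe the same variance, and 407 probes rose and 1000 fell, against 620 and 779. Among members 5 rose and 9 fell there. Signal over background limits Ugt2b35, Ugt1a2, Cyp11b2 and Cyp2d12, which were not detected on every array.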
